A study of Mus musculus with 8 samples.

Results

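The genes described here are the 38 protein-coding genes of integrin and laminin chains in mouse hearts, out of 54532 genes in the deposited table. They were chosen by symbol alone: 18 integrin alpha chains (Itga), 9 integrin beta chains (Itgb, without Itgbl1 and the integrin-binding proteins) and 11 laminin chains (5 Lama, 3 Lamb and 3 Lamc). RNA came from whole hearts of littermates on postnatal day 4, in 4 control and 4 cHET libraries, and the series calls the libraries of a group biological replicates. Every animal carried 1 floxed allele of Mrps5 (Mrps5 fl/+), which encodes a protein of the mitochondrial ribosome. The cHET animals (Mrps5 fl/+; Myh6-Cre) also carried Cre under the promoter of Myh6, a gene of heart muscle cells, so that these cells lose the floxed allele late in embryonic life, while other heart cells keep it. No group carries Cre without a floxed Mrps5, so an effect of Cre and one of the lost allele cannot be told apart. The libraries held 15490622 to 19234777 reads rebuilt from the deposited values, which are FPKM, fragments scaled by gene length and by the library total.

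Laminins are trimers of an alpha, a beta and a gamma chain that polymerise into the core of basement membranes, the sheets of matrix that wrap each heart muscle cell and underlie the endothelium. Integrins are receptors of an alpha and a beta chain that span the plasma membrane. Outside the cell they bind laminin, collagen, fibronectin or partner cells, and inside it they are tied through talin, kindlin and other adaptors to actin. In heart muscle they are concentrated at costameres, where the contractile apparatus is anchored to the matrix, and the alpha chain largely sets which ligand is bound. In bulk tissue, fewer cells of a type and less RNA per cell cannot be told apart, which holds for every level below.

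Some features of the libraries bear on what follows. The targeted gene Mrps5 stood at 11.6, 6.27, 10.1 and 5.15 FPKM in control 1 to 4 and at 6.84, 7.12, 7.0 and 7.68 FPKM in cHET 1 to 4, and the groups overlapped (exact two-sided permutation test, n = 4 per group, p = 0.486, where 0.0286 is the smallest possible). Heart muscle markers were abundant in every library, with 12 genes that summed to 18731 to 22857 FPKM. Control 1 and control 2 stood apart from the other libraries. Their 6 markers of fat and brown fat summed to 61.8 and 56.3 FPKM, against 24.6 to 42.6 FPKM elsewhere. Most of each sum came from Cidea, at 24.5 to 36.4 FPKM over the 8 libraries. Ucp1, the brown fat uncoupling protein, stood at 17.8 and 16.7 FPKM in control 1 and 2. It stood at 6.56 FPKM in cHET 2 and at 1.62 FPKM or less in the remaining libraries. Adipoq stood at 4.43 and 5.16 FPKM in control 1 and 2, 2.14 FPKM in cHET 2 and 0.265 FPKM or less in the remaining libraries. The atrial markers were lowest in cHET 3, at a summed 241 FPKM against 1459 to 5277 FPKM in the other libraries. The 8 Schwann and nerve cell markers summed to 6.75 to 10.6 FPKM.

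The 38 genes ranged in mean level from 0.0227 to 156 FPKM. Their mean over the 8 libraries was at least 1 FPKM for 21 genes, lay between 0.1 and 1 FPKM for 14 and was below 0.1 FPKM for Lamc3, Lama1 and Itgb2l. Itgb1, the beta chain shared by most matrix-binding integrins, had the highest level at 139.6 to 176 FPKM, above every value of any other of the 38 genes. Next came Lamb2, Lamc1, Itga5, Lamb1 and Itgb5, with means of 54.9, 48.3, 45.7, 33.2 and 27.6 FPKM over the 8 libraries. Neighbours in that order overlapped in their ranges over libraries. A gap then separated Itgb5 from Lama4 (25.4 FPKM at the lowest against 21.6 at the highest) and Lama4 from Lama5 (14.6 against 13.0). Below Lama5, every gene overlapped in range with the next.

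**Figure D1:**
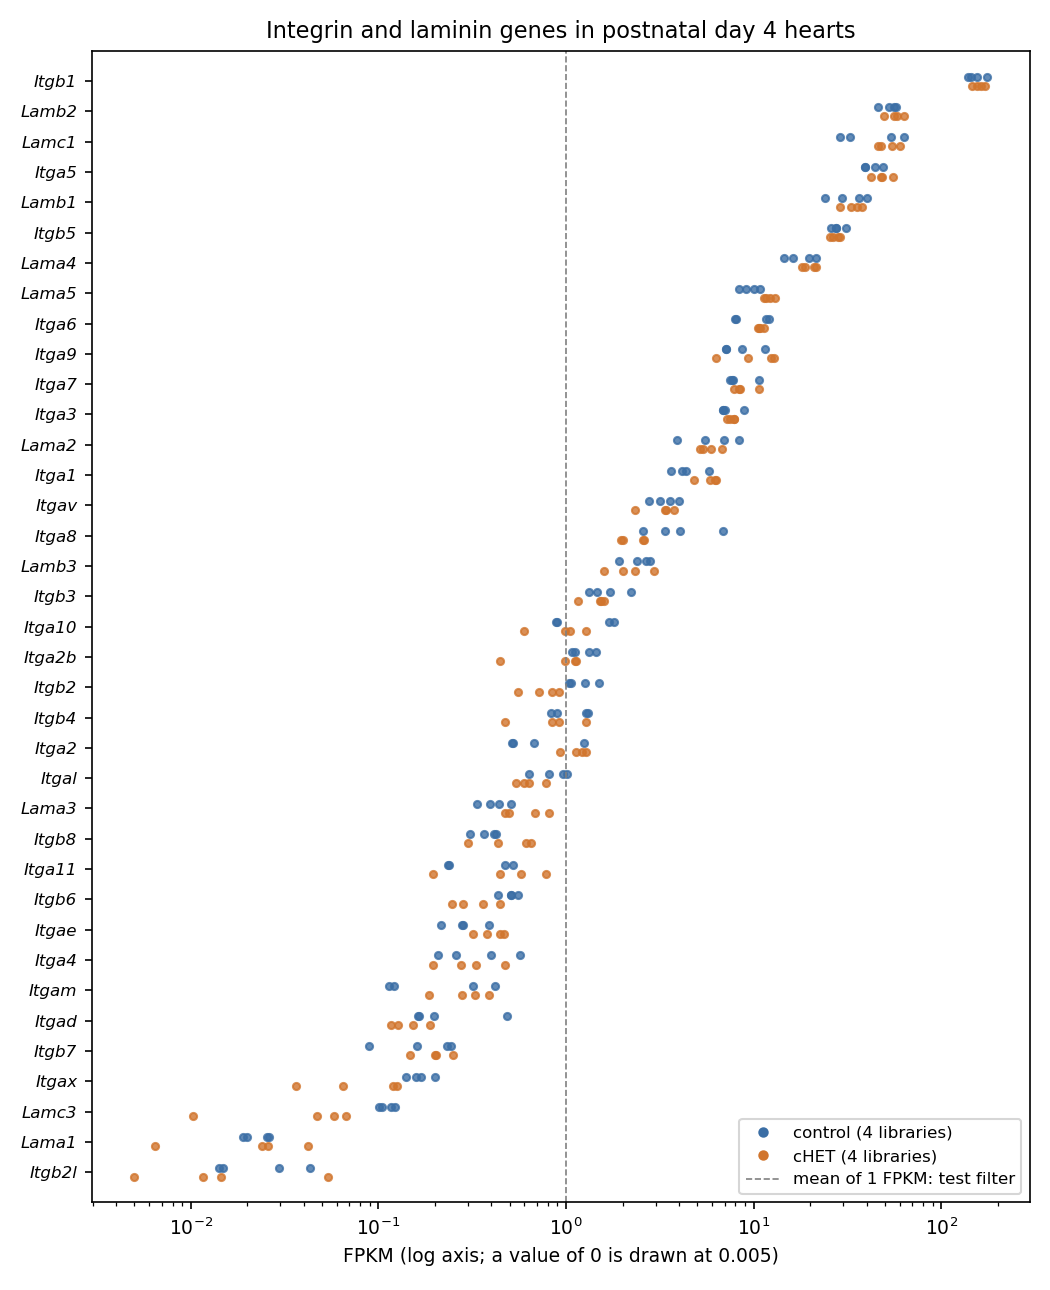
FPKM of the integrin and laminin genes described here (rows, ordered by mean level) in each library on a log axis, with control in blue and cHET in orange. Itgb1 stands alone at 139.6 to 176 FPKM, and the dashed line marks 1 FPKM, the mean level from which genes were tested.

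Among the laminin chains, 1 or 2 genes carried most of each class. Per length, Lama4, an alpha chain of vessel and muscle basement membranes, made up 52.6 ± 1.72% of the summed FPKM of alpha chains in control and 51.6 ± 2.14% in cHET hearts (SD, n = 4). Lama5, the large alpha chain of endothelial and epithelial basement membranes, made up 28.3 ± 3.04% in controls and 31.6 ± 2.24% in cHET. Lama2, the main laminin alpha chain around muscle fibres, made up 17.8 ± 2.62% and 15.2 ± 1.51%. Among beta chains, Lamb2 and Lamb1 shared nearly all of the sum, at 60.6 ± 4.16% and 36.6 ± 4.31% in control. Lamc1, the gamma chain of most laminins, made up 93.2 to 96.8% of the gamma chains in every library. Chains typical of skin and gut epithelium were scarce: Lamb3 had a mean of 2.33 FPKM, and its partner Lama3 stood at 0.334 to 0.811 FPKM. The 7 epithelial markers were low as well, at a summed 0.621 to 4.76 FPKM, and Krt5 was listed at 0 in every library. Krt14, the only 1 of them abundant enough to be tested, stood at 1.77 to 3.49 FPKM in controls and 0.283 to 2.14 FPKM in cHET.

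Among integrin alpha chains, Itga5, the fibronectin receptor chain, made up 45 ± 2.83% of the summed FPKM in controls and 47.1 ± 2.31% in cHET hearts (SD, n = 4). The 3 laminin-binding chains Itga3, Itga6 and Itga7 together made up 24.2 to 28.5% over the 8 libraries, with 9.01 to 12.1% from Itga6, 7.51 to 10.4% from Itga7 and 6.63 to 10.1% from Itga3. The ratio of Itga7, the laminin receptor chain of striated muscle, to Itga6, a chain of endothelial and epithelial cells, was 0.862 ± 0.147 in controls and 0.815 ± 0.131 in cHET. Among beta chains, Itgb1 made up 80.9 to 84.7% in every library and Itgb5, a vitronectin receptor chain, 13.2 to 16.3%. Itgb3, the beta chain of platelets and of activated vessels, made up at most 1.27%.

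No integrin or laminin gene passed the comparison of cHET with control. Of the 21 genes tested, 0 had a limma adjusted p under 0.05, against 0.023% of all 13029 genes tested, and their adjusted p-values ran from 0.409 to 0.951. At an unadjusted p under 0.05, limma gave 3 of the 21, against 8.95% of all genes. These were Lama5 and Itga1, higher in cHET as were 5.03% of all genes, and Itga8, lower in cHET as were 3.92%. The log2 fold change was above 0 for 6 of 8 laminins (median 0.12), 6 of 10 integrin alpha chains (0.05) and 1 of 3 integrin beta chains (-0.04). This value is the difference of log2(FPKM + 1), which understates the change of weakly expressed genes. In all it was above 0 for 13 genes and below 0 for 8, against 52.1% above 0 among all genes. Its median was 0.07 over the 21 genes and 0.0086 over all genes. With the values rescaled to TPM, in which every library has the same length-scaled total and which moves the median of all genes to 0.10, the median of the 21 genes was 0.17 and 16 of them were above 0.

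Lama5 (ENSMUSG00000015647, chromosome 2, 180176373 to 180225859, minus strand, GRCm38) was the only tested gene of the 38 whose groups did not overlap. It stood at 10.1, 8.31, 9.13 and 10.9 FPKM in control 1 to 4 and at 13.0, 11.4, 12.3 and 11.7 FPKM in cHET 1 to 4. All 4 cHET hearts thus lay above all 4 control hearts, and that share of 4.76% of the tested genes was close to the 4.74% of all genes whose groups do not overlap, 2.74% with cHET higher. The controls averaged 9.59 ± 1.11 FPKM and the cHET hearts 12.1 ± 0.725 FPKM (SD, n = 4), a ratio of 1.26. The log2 fold change was 0.31 (95% interval 0.10 to 0.52; limma unadjusted p = 0.00816, adjusted p = 0.409). As a share of laminin alpha chains, Lama5 overlapped between groups, at 25.2 to 31.2% in controls and 29.5 to 34.7% in cHET. Its log2 fold change lay between 0.25 and 0.42 in all 18 other settings tried, with limma adjusted p-values of 0.165 to 0.850. The 13 endothelial markers summed to 568 to 620.5 FPKM in the controls and 529 to 576 FPKM in the cHET hearts, none at 0. Their log2 fold change was above 0 for 4 and below 0 for 9. At an unadjusted p under 0.05, limma gave 5 as lower in cHET, against 3.92% of all genes. The groups did not overlap for 2, both lower, against 2% of all genes. The part of these markers in Lama5 was not tested.

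Itga1 and Itga8 were the other genes with an unadjusted p under 0.05. Itga1, a collagen receptor chain of endothelium, smooth muscle and fibroblasts (ENSMUSG00000042284, chromosome 13, 114953096 to 115101964, minus strand), stood at 3.63, 4.36, 4.17 and 5.78 FPKM in control 1 to 4 and at 5.88, 4.82, 6.21 and 6.33 FPKM in cHET 1 to 4. cHET 2 lay below control 4, and the other cHET hearts lay above every control heart. The log2 fold change was 0.32 (95% interval 0.03 to 0.61; limma unadjusted p = 0.0333, adjusted p = 0.524), and without control 1 and control 2 it was 0.20 (limma unadjusted p = 0.202). Leaving out control 1, 2 or 3 or cHET 1, 3 or 4 on its own also took the unadjusted p of Itga1 to 0.05 or above. Itga1 encloses Pelo, which lies on the same strand at 3.52 to 6.77 FPKM, so reads of overlapping sequence may be shared.

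Itga8, a fibronectin and nephronectin receptor chain of smooth muscle and mesenchymal cells (ENSMUSG00000026768, chromosome 2, 12106632 to 12301922, minus strand), was lower on average in cHET. It stood at 4.03, 6.84, 2.57 and 3.36 FPKM in control 1 to 4 and at 2.61, 2.56, 1.96 and 2.01 FPKM in cHET 1 to 4. Control 2 was the highest, control 1 the next, and control 3 lay within the range of the cHET hearts. The log2 fold change was -0.61 (95% interval -1.09 to -0.12; limma unadjusted p = 0.0191, adjusted p = 0.479). Without control 2 it was -0.39, with library weights -0.31, and without control 1 and control 2 it was -0.27 (limma unadjusted p = 0.0810). The limma unadjusted p of Itga8 stayed under 0.05 with any 1 library left out, but not with library weights. The fat marker sums given above were highest in the same 2 control libraries. Control 2 also had the highest sum of 13 epicardial markers (133 FPKM, against 60.1 to 87.1 FPKM elsewhere, none at 0). The sum of 10 smooth muscle and pericyte markers was highest there as well (899 FPKM, against 462 to 872 FPKM elsewhere, none at 0), with 753 FPKM from Acta2. That list was split. Control 2 was the highest library for Myh11, Acta2, Tagln and Cnn1 and the lowest for Pdgfrb, Cspg4, Kcnj8 and Abcc9. The 10 fibroblast markers summed to 639.6 to 933 FPKM in the controls and 555 to 947.5 FPKM in the cHET hearts, with all 10 below 0, none of them past the test. The part of these tissues in Itga8 was not tested.

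The start regions of these 3 genes are shown because they are the only tested genes with an unadjusted p under 0.05. Each sequence is the 250 bases before the RefSeq transcription start on GRCm38.p6, read 5′ to 3′ on the minus strand, with GC boxes (GGGCGG, on either strand) in capitals. The windows lie at chr2:180225860-180226109 for Lama5, chr13:115101965-115102214 for Itga1 and chr2:12301945-12302194 for Itga8.
Lama5: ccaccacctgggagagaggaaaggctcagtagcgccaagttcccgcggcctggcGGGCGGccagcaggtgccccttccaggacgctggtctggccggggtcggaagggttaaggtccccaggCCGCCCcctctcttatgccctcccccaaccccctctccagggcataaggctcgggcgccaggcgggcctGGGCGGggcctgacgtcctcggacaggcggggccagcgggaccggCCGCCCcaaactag
Itga1: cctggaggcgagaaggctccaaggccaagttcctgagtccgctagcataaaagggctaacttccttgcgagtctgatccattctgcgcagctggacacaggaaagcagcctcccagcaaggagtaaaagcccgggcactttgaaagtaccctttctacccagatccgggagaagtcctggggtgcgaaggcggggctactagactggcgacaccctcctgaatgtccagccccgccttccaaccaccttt
Itga8: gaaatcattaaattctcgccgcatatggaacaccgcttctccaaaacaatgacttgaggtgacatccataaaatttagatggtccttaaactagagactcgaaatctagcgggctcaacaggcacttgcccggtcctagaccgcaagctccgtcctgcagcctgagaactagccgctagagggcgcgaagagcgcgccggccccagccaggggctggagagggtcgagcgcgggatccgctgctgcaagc
The Lama5 window holds 4 GC boxes, which bind the factor Sp1 and its relatives, and 72.4% G or C. The windows of Itga1 and Itga8 hold none, at 57.6% and 56.4% G or C. Of 32851 such windows of all genes, 32.7% hold at least 1 GC box. All 3 windows lack the letters TATAAA on either strand, which 12.4% of all windows hold, and they hold 19, 10 and 18 CpG pairs against a median of 6. A match in letters is a description of the window and says nothing of binding.

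**Figure D2:**
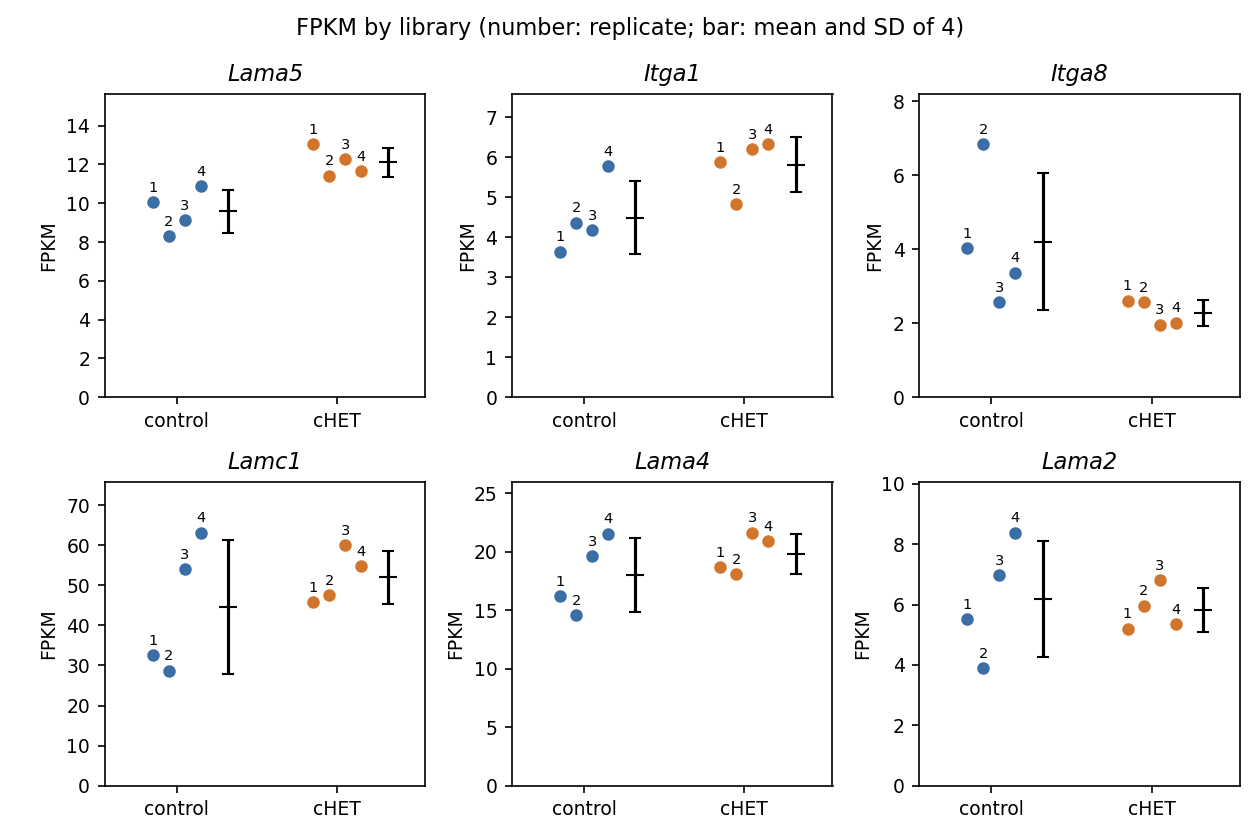
FPKM (vertical axes, from 0) of 6 genes in each library, with the replicate number at each point and the mean and SD of 4 libraries as a bar. The groups do not overlap for Lama5, overlap for Itga1 and Itga8, and control 1 and 2 are the lowest libraries for Lamc1 and Lama4.

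Much of the spread among these genes lay within the control group. Lamc1 (ENSMUSG00000026478, chromosome 1, 153218922 to 153332786, minus strand) stood at 32.6, 28.7, 54.0 and 63.2 FPKM in control 1 to 4 and at 45.8, 47.5, 60.1 and 54.8 FPKM in cHET 1 to 4. Control 1 and 2 lay below all other libraries and control 4 above them, with every cHET heart in between. The controls averaged 44.6 ± 16.6 FPKM and the cHET hearts 52.0 ± 6.62 FPKM (SD, n = 4), and the log2 fold change was 0.28 (95% interval -0.25 to 0.82; limma adjusted p = 0.717). Without control 1 and 2, Lamc1 had a log2 fold change of -0.17 (limma adjusted p = 0.773), so its direction rested on these libraries. The ratio of Lamc1 to Lamb1, a usual partner, was 1.1 and 1.2 in control 1 and 2 and 1.38 to 1.64 in the other libraries.

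Control 1 and 2 were the lowest pair of the 8 libraries for 6 of the 21 genes, against 17.7% of all genes tested: Itgb1, Lamc1, Itga5, Lama4, Itga6 and Itga7. Itga6 stood at 7.93 and 8.10 FPKM in control 1 and 2, at 12.0 and 11.7 FPKM in control 3 and 4, and at 10.6 to 11.3 FPKM in the cHET hearts. Lama4 stood at 16.2 and 14.6 FPKM in control 1 and 2, at 19.6 and 21.6 FPKM in control 3 and 4, and at 18.1 to 21.6 FPKM in the cHET hearts. For both genes the cHET hearts lay above the first pair of controls, and only Itga6 had every cHET heart below the second pair. The opposite order, with control 1 and 2 as the highest pair, held for Itga8, Itga10 and Itga2b, against 16.3% of all genes. Itga10, a collagen receptor chain of cartilage, stood at 1.69 and 1.80 FPKM in that pair and at 0.600 to 1.28 FPKM elsewhere.

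**Figure D3:**
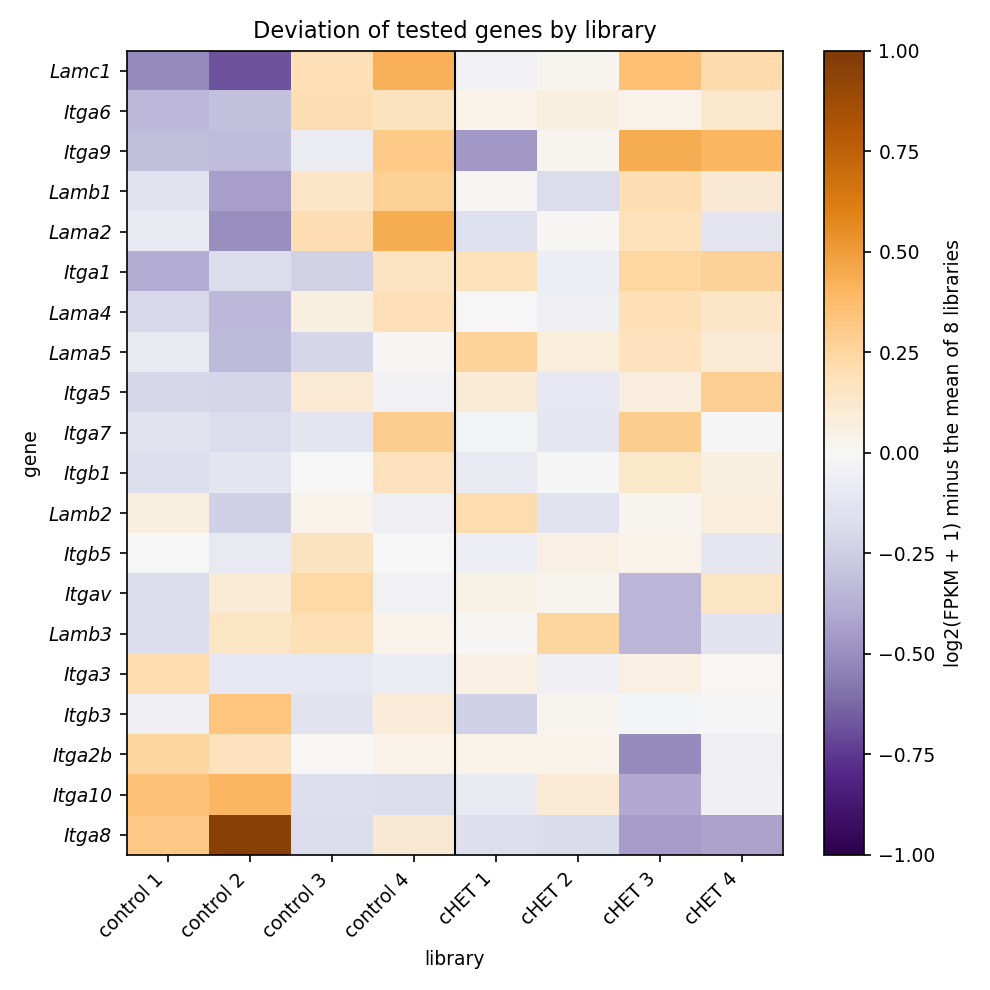
Deviation of the tested genes described here (rows) in each library (columns) from its mean over 8 libraries, as log2(FPKM + 1), with purple for lower and orange for higher values. The columns of control 1 and control 2 are purple for most laminin genes and orange for Itga10, Itga2b and Itga8, and Lamc1 reaches -0.51 and -0.69 there.

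Gene length moved with the same libraries. The tested integrin and laminin genes are long, with a median length of 7691 bases against 3894 bases for all genes tested, and 10 of the 21 have at least 8000 bases, against 15.1% of all genes. Over the 1965 tested genes of at least 8000 bases, the median deviation from the mean of the 8 libraries was -0.086 in control 1 and -0.15 in control 2 on the log2 scale, and 0.085 in control 4. Over the 2991 genes under 2000 bases it was 0.13, 0.21 and -0.15 in the same libraries. In cHET 3 it was 0.071 for the long and -0.077 for the short class, the same order as in control 4. In the other cHET hearts both classes lay between -0.034 and 0.032. The median deviation of the 21 integrin and laminin genes was -0.14 in control 1, -0.18 in control 2, 0.11 in control 4 and -0.0049 to 0.083 in the cHET hearts. The part of gene length or RNA quality in these levels was not tested.

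**Figure D4:**
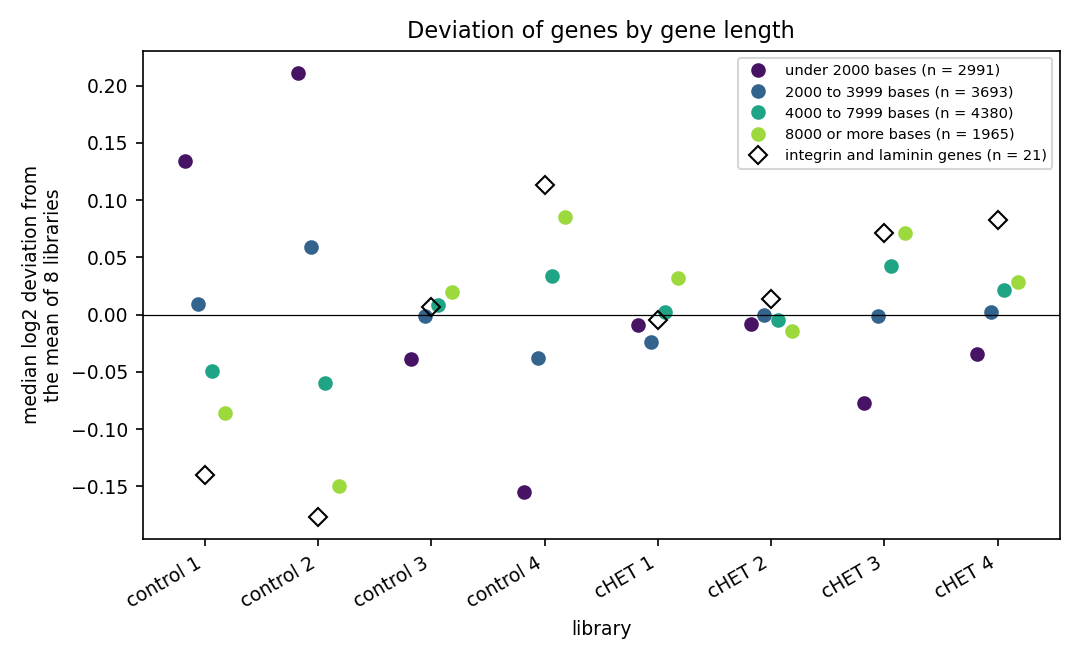
Median log2 deviation from the mean of 8 libraries (vertical axis) in each library (horizontal axis) for genes in 4 classes of length and, as open diamonds, for the 21 tested integrin and laminin genes. In control 1 and 2 long genes and the diamonds lie below 0 and short genes above it, and in control 4 and, less so, cHET 3 the order is the opposite.

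Without control 1 and 2, which leaves 2 control libraries, 7 of the 21 genes had a log2 fold change above 0 and 14 below, with a median of -0.055. Of the 21 genes 0 passed there either (limma adjusted p 0.503 to 0.994), against 0.0154% of all genes. Lama5 kept its sign at 0.26 (95% interval 0.03 to 0.48; limma unadjusted p = 0.0309). Lama2 (ENSMUSG00000019899, chromosome 10, 26980036 to 27619758, minus strand) stood at 6.97 and 8.38 FPKM in control 3 and 4, above the 5.20, 5.96, 6.81 and 5.35 FPKM of cHET 1 to 4. Its log2 fold change in that comparison was -0.35 (95% interval -0.63 to -0.07; limma unadjusted p = 0.0218), where 8.52% of all genes had an unadjusted p under 0.05. With control 1 and 2, at 5.52 and 3.90 FPKM, it was -0.04 (95% interval -0.46 to 0.38; limma adjusted p = 0.951), and above 0 under TPM. The ratio of Lama5 to Lama2, which needs no scaling between libraries, was 1.82, 2.13, 1.31 and 1.30 in control 1 to 4 and 2.51, 1.92, 1.80 and 2.18 in cHET 1 to 4. Control 3 and 4 were thus the lowest of the 8 libraries in that ratio, and control 1 and 2 lay among the cHET hearts.

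**Figure D5:**
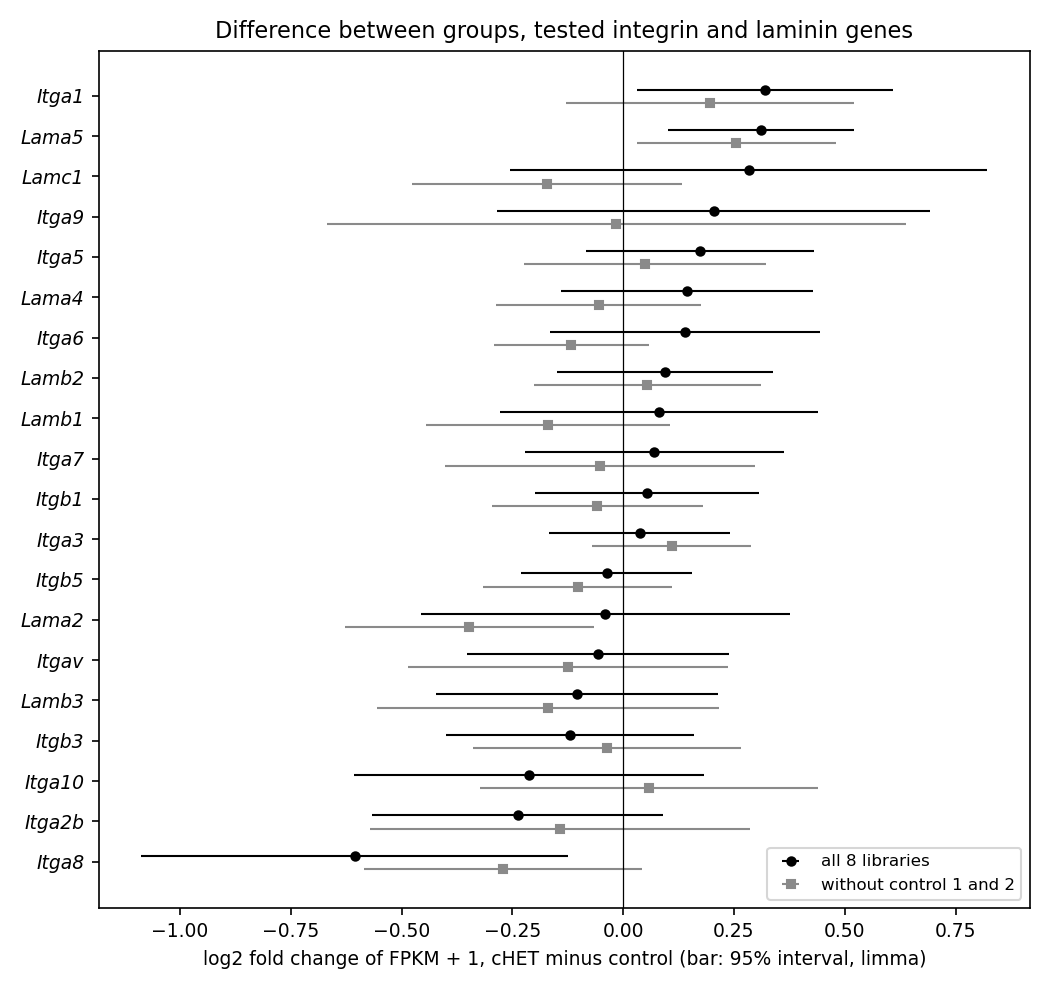
Log2 fold change of FPKM + 1 (horizontal axis, cHET minus control) of the tested genes described here with 95% intervals from limma, over all 8 libraries (black circles) and without control 1 and 2 (grey squares). The black interval excludes 0 for Itga1, Lama5 and Itga8, and the grey one for Lama5 and Lama2.

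The other laminin chains had intervals that include 0. Lamb2, the beta chain of mature muscle basement membranes, stood at 46.2 to 57.1 FPKM in controls and 49.5 to 63.7 FPKM in cHET (log2 fold change 0.09, 95% interval -0.15 to 0.34). Lamb1, the more embryonic beta chain, stood at 23.9 to 40.0 FPKM in controls and 29.0 to 38.0 FPKM in cHET (0.08, -0.28 to 0.44). The ratio of Lamb2 to Lamb1 averaged 1.68 ± 0.301 in controls and 1.68 ± 0.190 in cHET hearts (SD, n = 4), with 1.92 and 1.93 in control 1 and 2 and 1.92 in cHET 1. Lamb3 had a log2 fold change of -0.10 (95% interval -0.42 to 0.21), and it overlaps G0s2, on the opposite strand at 40.7 to 86.9 FPKM, so its level is uncertain.

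For the most abundant integrin chains and the laminin receptors the groups overlapped. Itgb1 stood at 139.6, 143, 156 and 176 FPKM in control 1 to 4 and at 146, 155, 172 and 163 FPKM in cHET 1 to 4. The cHET hearts lay inside the range of the controls, and the log2 fold change of 0.05 had a 95% interval of -0.20 to 0.31. Itga7 stood at 7.68, 7.44, 7.77 and 10.7 FPKM in controls and at 8.36, 7.81, 10.7 and 8.49 FPKM in cHET (log2 fold change 0.07, 95% interval -0.22 to 0.36). Itga5 stood at 39.0 to 49.0 FPKM in controls and 42.1 to 55.5 FPKM in cHET (0.17, -0.08 to 0.43), and Itga6 had 0.14 (-0.17 to 0.44). Itga3, a laminin receptor chain of epithelia, had 0.04 (-0.17 to 0.24).

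The remaining tested integrins also overlapped between groups. Itga9, a receptor chain for tenascin and related ligands, stood at 7.12, 7.08, 8.64 and 11.5 FPKM in control 1 to 4 and at 6.32, 9.34, 12.8 and 12.4 FPKM in cHET 1 to 4, so cHET 1 was the lowest of all 8 libraries. Its log2 fold change was 0.20 (95% interval -0.28 to 0.69), and with 1 library left out it ran from 0.09 without cHET 3 to 0.39 without cHET 1. The vitronectin receptor chains Itgav and Itgb5 had -0.06 (-0.35 to 0.24) and -0.04 (-0.23 to 0.16), and both values were above 0 under TPM. Itgb3 had -0.12 (-0.40 to 0.16), and its platelet partner Itga2b had -0.24 (-0.57 to 0.09), with the lowest value in cHET 3 at 0.445 FPKM. Without cHET 3 the value for Itga2b was -0.11, and from voom on the rebuilt reads with median-of-ratios sizes it was -0.50. Of 10 platelet markers only 1, Pf4, was abundant enough to be tested, and Gp1bb was listed at 0 in every library. The list summed to 10.1 to 24.9 FPKM in controls and 9.86 to 15.2 FPKM in cHET, with the highest sums in control 1 and 2. Most of each sum came from Pf4, at 15.9 and 20.7 FPKM in control 1 and 2. That list was split as well. Gp9 was also highest in this pair of libraries, while Gp1ba was lowest there, at 0.474 and 0.251 FPKM. The part of platelets in Itga2b and Itgb3 was not tested. Itga10 had -0.21 (-0.61 to 0.18), and 0.06 without control 1 and 2.

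The 17 genes with a mean below 1 FPKM were not tested in the main comparison. Itgb2, with a mean of 0.985 FPKM, and Itgb4, with 0.978 FPKM, fell just outside the level filter, and Itga10, with 1.15 FPKM, and Itga2b, with 1.08 FPKM, just inside it. Of the 17, 8 had a higher and 9 a lower mean in cHET, and the groups did not overlap for 3: Itgb2, Itgax and Lamc3, each lower in cHET. Among the 16646 genes with a mean above 0 and below 1 FPKM, 2.4% had groups that do not overlap and 1.53% were lower in cHET in this way. In a fit with no level filter, the lowest limma adjusted p of the 17 genes was 0.737, for Itgb2.

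The leukocyte integrins were all among these 17 genes. Itgb2, the beta chain common to the integrins of white blood cells, stood at 1.5, 1.26, 1.04 and 1.06 FPKM in control 1 to 4 and at 0.556, 0.920, 0.836 and 0.717 FPKM in cHET 1 to 4, at 29 to 71 reads per library. Itgax, an alpha chain of dendritic cells and macrophages, had 51 reads over the control libraries (95% Poisson interval 38.0 to 67.1) and 30 over the cHET libraries (20.2 to 42.8), intervals that cover counting error only. Itgal, the alpha chain of lymphocyte adhesion, stood at 0.637 to 1.01 FPKM in controls and 0.543 to 0.780 FPKM in cHET. Itgam, the alpha chain of monocytes and neutrophils, overlapped widely, at 0.114 to 0.419 and 0.186 to 0.390 FPKM. Itgae, a leukocyte alpha chain, had the higher mean in cHET, at 0.216 to 0.387 FPKM in controls and 0.318 to 0.465 FPKM in cHET. It overlaps Haspin, on the opposite strand at 2.04 to 5.35 FPKM, so its level is uncertain. Itgb7, a leukocyte beta chain, stood at 0.0894 to 0.242 FPKM in controls and 0.148 to 0.249 FPKM in cHET. The 16 leukocyte and macrophage markers summed to 110.2 to 222.8 FPKM in the controls and 84.1 to 129.6 FPKM in the cHET hearts. The 14 that were tested all had a log2 fold change below 0, none of them past the test. At an unadjusted p under 0.05, limma gave 6 of the 14, against 3.92% of all genes that were lower at that level. None of the 16 was at 0 in any library, and Ptprc, the common leukocyte antigen, stood at 0.128 to 0.355 FPKM. The 8 neutrophil markers summed to 75.7 FPKM in control 2, 26.8 FPKM in control 1 and 9.30 to 17.4 FPKM elsewhere, and the 8 T cell markers to at most 1.12 FPKM. The part of these cells in the levels of Itgb2, Itgax, Itgal, Itgam, Itgae and Itgb7 was not tested.

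Itgad, another leukocyte alpha chain, stood at 0.485 FPKM in control 1 and at 0.117 to 0.197 FPKM in the other libraries. It overlaps Cox6a2, a muscle cytochrome oxidase subunit on the opposite strand at 1179 to 2236 FPKM, and whether reads were counted by strand is not given in the sources used here, so its value is uncertain. Itgam, Itgax and Itgad lie next to one another on chromosome 7, with 11055 and 3718 bases between them. Itga2 lies 20995 bases from Itga1 on chromosome 13 and, like it, encodes a collagen receptor chain. Itga2 stood at 0.514, 0.521, 0.675 and 1.24 FPKM in control 1 to 4 and at 1.12, 1.28, 1.21 and 0.928 FPKM in cHET 1 to 4. Control 4 was within the range of the cHET hearts and the other controls were below it (no-filter limma adjusted p = 0.760).

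The other low genes were given by their ranges over the 8 libraries. Lama3, Itgb8, Itga11, Itgb6, Itgae and Itga4 stood between 0.194 and 0.811 FPKM. Itgb6, an epithelial activator of TGF-beta, had 0.435 to 0.553 FPKM in controls and 0.247 to 0.444 FPKM in cHET, which overlapped in 1 cHET library. Lamc3 had 0.10 to 0.122 FPKM in controls and 0.0102 to 0.0672 FPKM in cHET, at 43 and 20 reads per group (95% Poisson intervals 31.1 to 57.9 and 12.2 to 30.9). Lama1, the laminin alpha chain of early embryos, stood at 0.0423 FPKM or less, Itgb7 at 0.249 FPKM or less and Itgb2l at 0.0541 FPKM or less. Itgb2l had 0 reads in cHET 4, which allows up to 0.0400 FPKM, the value of 3 reads.

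In 4 lists of partners of these receptors and ligands, 0 genes passed the limma test in either direction. The log2 fold change was above 0 for 17 of 28 tested genes of the focal adhesion and its adaptors (median 0.03). The genes with the smallest p were Ptk2b, a kinase related to focal adhesion kinase (0.28), Itgb1bp2, which encodes the muscle protein melusin that binds the tail of the beta chain of Itgb1 (-0.38), and Parvg, the parvin of blood cells (-0.26). Ptk2b stood at 1.79 to 2.39 FPKM in controls and 2.47 to 3.18 FPKM in cHET, with no overlap. Parvg did not overlap either, at 1.2 to 1.48 FPKM and 0.719 to 1.10 FPKM, and groups that do not overlap were found for 4.74% of all genes. Itgb1bp2 stood at 82.2 to 132 FPKM in the controls and 77.4 to 82.2 FPKM in the cHET hearts. For Itgb1bp2 control 1 and 2 were again the extreme pair, at 118 and 132 FPKM.

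Of 15 tested genes of the basement membrane other than laminins, 8 were above 0, with a median of 0.12. Nid2, which links laminin to collagen IV, stood at 13.5, 12.2, 21.8 and 22.3 FPKM in control 1 to 4 and at 21.6, 22.6, 24.1 and 28.1 FPKM in cHET 1 to 4. Control 1 and 2 were the lowest pair, as for Lamc1, to whose product nidogens bind (log2 fold change 0.48, limma adjusted p = 0.525). Smoc1 had -0.54 and Smoc2 -0.22, both matricellular proteins of the basement membrane. Of 22 tested further integrin ligands, 6 were above 0, with a median of -0.06. Ltbp1, which presents latent TGF-beta to integrins, averaged 6.82 ± 0.923 FPKM in controls against 4.76 ± 0.642 FPKM in cHET hearts (SD, n = 4), with a log2 fold change of -0.44 (limma adjusted p = 0.348). Its groups narrowly missed overlap, with 5.615 FPKM in control 1 and 5.610 FPKM in cHET 2. Of all genes tested, 2% were lower in cHET without overlap. Spp1 had -0.86 and Vwf -0.46.

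The dystroglycan complex is the other laminin receptor of muscle. Of 18 tested genes of that complex and its modifying enzymes, 8 were above 0 and 10 below, with a median of -0.0072. Sgcb, Sgca and Dmd had the smallest p, with log2 fold changes of -0.12, -0.18 and -0.19 and limma adjusted p-values of 0.659 to 0.697. At an unadjusted p under 0.05, limma gave 3 of 28 focal adhesion genes, 2 of 15 genes of the basement membrane, 2 of 22 further ligands and 0 of 18 genes of the dystroglycan complex, against 8.95% of all genes tested.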

How the data were processed

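Poly-A RNA of 8 hearts was sequenced, per the labels' protocols. The deposited values are FPKM, for which the authors divided reads by gene length and library total, and the table lists that length. The submitters' processing notes name build mm9 and the tools featureCounts 1.5.0-p3, DESeq2 1.20.0 and HISAT2 2.0.5, without roles. The coordinates in the table are those of GRCm38, since 98.3% of 54409 shared genes, and all 38 members, had the same start and end in GENCODE M21. FPKM times length was a whole multiple of 1 step per library for 100% of values, within 0.05 reads, so reads were rebuilt.

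Genes with a mean of at least 1 FPKM over the 8 libraries (13029) entered a two-sided comparison of log2(FPKM + 1) by limma (version 3.58.1, R 4.3.3, trend and robust), with Benjamini-Hochberg adjustment over all of them at 0.05. Each limma p-value sets the difference of group means against the spread between libraries of a group, estimated with help from all genes tested. The fit was tested on simulated data. Gene and marker lists were written by hand. Members, lists and tests were chosen with earlier results of these data known. The values of 1 member are not reported here, though counts and medians over the members include it. Every other member is named, from each pathway list the 3 genes with the smallest p, and Mrps5. Genes outside that rule (Ucp1, Adipoq, Cidea, Pelo, Cox6a2, G0s2, Haspin, Pf4, Gp9, Gp1ba, Gp1bb, Krt5, Krt14, Ptprc, Acta2, Myh11, Tagln, Cnn1, Pdgfrb, Cspg4, Kcnj8, Abcc9) were named after their values were seen. Of the 38 members, 21 overlap a further gene, counting both strands. Promoter windows of 24 members were matched by symbol in RefSeq. Libraries of a group differed by at least 16.7 in chi-square per gene, far above sampling noise, and none was left out of the main fit.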

Additional observations from a re-analysis of the deposited data

Results flagged for a closer look

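Of 78 groups of 4 libraries examined for the 38 genes and Mrps5, 3 held a library whose gap to the nearest other, relative to the range of the group, exceeded Dixon's 95% critical value, where chance gives about 1 in 20. Itga7 stood at 10.7 FPKM in control 4, against 7.44 to 7.77 FPKM in the other controls. Itga3 stood at 8.84 FPKM in control 1, against 6.88 to 7.07 FPKM in the other controls. Itgad stood at 0.485 FPKM in control 1, against 0.162 to 0.197 FPKM in the other controls.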

How the results depend on the processing

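No integrin or laminin gene passed the limma test in any of 18 other settings, where the lowest adjusted p was 0.165. The alternatives were pseudocounts, level filters, TPM, quantile normalization, voom on rebuilt reads with 2 kinds of library size, library weights, a replicate block, each library left out in turn and control 1 and 2 left out together, which was planned because earlier results set these libraries apart. Of 378 pairs of a gene and a setting, 356 kept the sign of the main value and 22 did not, and 9 of the 21 genes kept it in all settings. The median log2 fold change of 0.07 became -0.055 without control 1 and 2. Without that pair, Itgb1 had -0.058, Lamc1 -0.17, Lamb1 -0.17, Lama4 -0.055, Itga6 -0.12, Itga9 -0.015, Itga7 -0.052 and Itga10 0.058. Under TPM, Itgb5 had 0.059, Lama2 0.050 and Itgav 0.019, while the median of all genes was 0.10. With library weights, Lamb1 had -0.072, Itga6 -0.033 and Itgb3 0.0079. With 1 library left out, values ran from -0.053 to 0.19 for Lamb1, -0.074 to 0.013 for Itgb5, -0.21 to 0.10 for Lama2, -0.13 to 0.050 for Itgav and -0.015 to 0.18 for Itga7, and Mrps5, at -0.13 over all libraries, ran from -0.30 to 0.041. In all these cases the cause was not tested. With the replicate number as a replicate block, 0 of the 21 genes passed and the median was 0.07. Over all genes, the 3 that pass became 1 with that block and 11 with library weights. At an unadjusted p under 0.05, limma gave 13.4% of all genes with that block, against 8.95% in the main fit. The correlation of deviations of same-numbered libraries was 0.286, 0.266, 0.052 and 0.057. Between libraries of different number it ran from -0.272 to 0.344, and these values do not settle whether libraries are paired by number. Depth limits the genes under 1 FPKM, of which Itgax, Itgb7, Lamc3, Lama1 and Itgb2l had at most 15 reads in any library.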
